A study of Drosophila melanogaster with 4 samples.

Results

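The X chromosome of Drosophila melanogaster held 747 of the 4026 clusters of H3K36me3, a trimethylated lysine of histone H3, that the authors listed for head nuclei by chromatin immunoprecipitation and sequencing (ChIP-seq). These 747 were taken by position alone, as every enriched cluster on X in the combined list of the replicate set, and the choice used neither width nor score. Nuclei came from heads of wild-type Oregon-R adults, a laboratory strain kept in population cages, at a stage given as mixed adult. There were 2 groups, with 2 libraries precipitated by an antibody against H3K36me3 and 2 of input chromatin, all of the same strain and with no treatment in the labels. The authors' cluster list of each precipitated library, with 729 X clusters in replicate 1 and 725 in replicate 2, was the check on the combined list. The sources do not say whether the replicates came from separate collections of flies, and the proportions of males and females were not stated, so the number of X copies per nucleus is unknown. Heads hold many cell types, and a cluster is an average over all of them.

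H3K36me3 is laid down by the Set2 methyltransferase, which travels with elongating RNA polymerase II, so the mark lies over the bodies of transcribed genes. On the male X it has a further reader, the MSL3 subunit of the dosage compensation complex, which spreads from entry sites to active genes and acetylates histone H4 there. X is acrocentric, with its telomere at the low end of the coordinates and its centromere beyond the high end.

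All positions are on FlyBase release 5, in which X has 22422827 bases, and no gene is named because the gene table used here is on release 6. A cluster runs from its first to its last base, and the score is the authors' own enrichment score, of unstated scale. Scores were compared inside a list only; where scores from several lists stand side by side, each is that list's own value. Clusters of the same library are not replicates of each other, so no test was run over them and values of other arms stand beside those of X untested. An SD with n = 2 is the spread between the replicate libraries, which may be technical. Read depth is unknown from these lists, so no counting interval is given.

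The combined list marked 4.76 Mb of X, or 21.3% of its length, at 33.3 clusters per Mb. The replicates marked 20.1% and 20.0%, a mean of 20.0% ± 0.0711 (SD, n = 2). Most X clusters of the combined list overlapped clusters of both replicate lists. Of the 747, 681 (91.2%) overlapped a cluster of each replicate by at least 1 bp, against 90.8% over all 4026 clusters of the list. The combined list stands for the same 2 libraries, so such overlap is largely built in and is no independent recovery. Set against each other, the replicate lists shared 4.36 Mb of X, or 94.5% of the bases marked in either. Of the others, 14 were met only by replicate 1, 12 only by replicate 2 and 40 (5.35%) by no replicate cluster.

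Width separated the X clusters that were found again from those that were not. All 483 clusters wider than 4 kb lay in both replicates, as did 672 of the 685 that were 2 kb or wider. Of the 62 narrower than 2 kb, 9 did. For the 40 found in neither replicate, the median was 1310 bp in width and 0.503 in score. Of these, 19 were narrower than 1305 bp, the narrowest X cluster in either replicate list. The plot of width against score shows these clusters as a low, narrow group at the left edge.

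**Figure D1:**
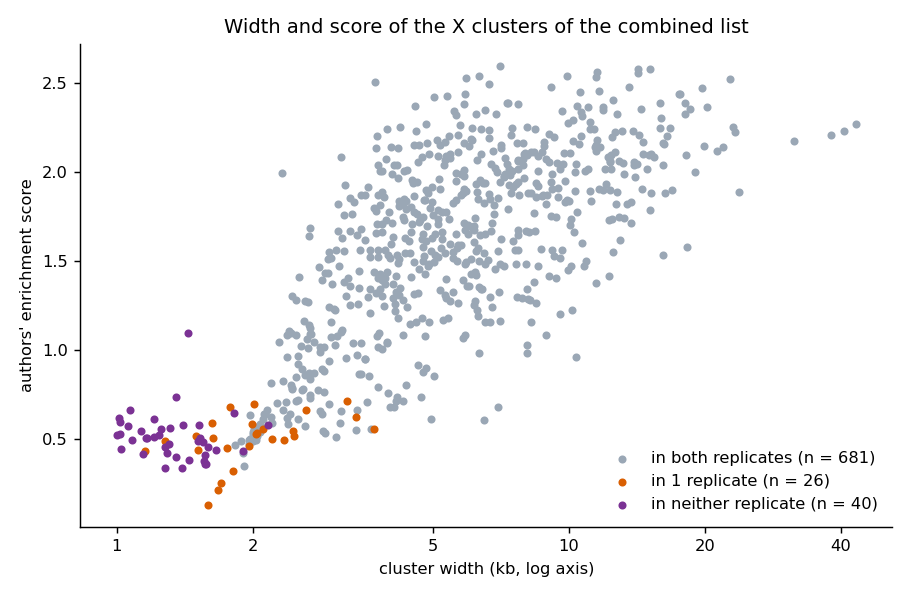
Width in kb (log axis) against the authors' enrichment score for each of the 747 X clusters of the combined list, coloured by how many replicate lists held it. Clusters found in neither replicate (40) sit at widths up to 2157 bp, and the 681 found in both reach 43.1 kb.

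For X clusters with a single match in each replicate, boundaries mostly differed little between the libraries relative to the widths. Clusters that a replicate missed or split are not among them. Among 627 clusters that matched a single cluster in each replicate and no other, the median difference between the replicates was 72 bp at the start and 74 bp at the end. Both ends lay within 100 bp in 250 of them (39.9%). The 95th percentile was 473 bp at starts and 530 bp at ends, and the largest differences were 1903 bp at a start and 2057 bp at an end. Neither library was the wider as a rule, with 319 clusters wider in replicate 1 and 306 wider in replicate 2. The combined cluster was wider than both of its replicate clusters in 569 of the 627. Over all 627 its width exceeded the mean of the replicate widths by a median of 149.5 bp, and every combined X cluster started and ended on an even base.

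The median X cluster was 5.13 kb wide in the combined list, 4.88 kb in replicate 1 and 4.96 kb in replicate 2. The middle of the distribution was narrow, from 3.28 kb at the lower quartile to 8.09 kb at the upper. The 125 clusters of 10 kb or wider were 16.73% of the X clusters and held 38.0% of the marked bases. The median width lay among those of the autosomal long arms, at 5.13 kb on X, against 4.87 kb on 3L to 5.19 kb on 3R. Wide clusters were no more common on X: 10 kb or wider were 16.73% on X, against 16.6% on 3L to 20.1% on 3R in the combined list, and in both replicates the X share, 15.4% and 14.9%, was the lowest of the 5 arms. The widest cluster of all 5 arms was nevertheless on X in every list, with 43.1 kb on X, against 37.9 kb on 2L in the combined list.

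Wider X clusters scored higher, with smaller steps at the wide end. Median scores in the combined list were 0.487 below 2 kb, 1.08 from 2 to 4 kb, 1.73 from 4 to 8 kb, 2.01 from 8 to 16 kb and 2.20 from 16 kb up. Across the 747 clusters, which share their libraries, Spearman's rho of width and score was 0.737. At a given width scores still spread widely, and among clusters of 4 to 8 kb they ran from 0.607 to 2.60.

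The highest score on X belonged to a cluster of moderate width, X 16191074 to 16198110 (7.04 kb), with 2.60 in the combined list, 2.63 in replicate 1 and 2.59 in replicate 2. Next came X 15765278 to 15780438 (15.2 kb), with 2.58 in the combined list and 2.55 and 2.62 in the replicates. Both lie in the dense stretch described further on, but high scores did not gather there. The stretch held 12.7% of X clusters, and 8 of the 75 X clusters in the top 10% by score. It also held 8 of the 75 in the lowest 10%. Further down the top 5 came X 6133346 to 6147544, with 2.58 in the combined list and 2.62 and 2.59 in the replicates. X 8487168 to 8498700 had 2.57 in the combined list and 2.57 and 2.59 in the replicates. The fifth, X 19745886 to 19760152, had 2.56 in the combined list, 2.70 in replicate 1 and 2.46 in replicate 2. No member of the top 5 was among the 10 widest, but 10 of 747 X clusters are too few for an overlap to be expected. Across all 747, wider clusters scored higher, with a rho of 0.737.

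The lowest score on X was 0.127, at X 20914086 to 20915676 (1.59 kb), which replicate 2 listed with 0.332 and replicate 1 did not list. The next was X 6154978 to 6156652 with 0.210, listed in replicate 1 alone. It was followed by X 13891654 to 13893358 with 0.252, listed in replicate 2 alone, and X 20072266 to 20074070 with 0.320, listed in replicate 1 alone. The fifth, X 12572260 to 12573652 with 0.334, was in neither. None of these 5 was held by both replicates.

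Very low scores were rarer on X than on each autosomal arm in every list, without a test. Scores under 0.5, a limit chosen after the scores were seen, were given to 39 of 747 X clusters (5.22%), against 380 of 3072 (12.4%) on 2L, 2R, 3L and 3R together in the combined list. In replicate 1 they were 4 of 729 (0.549%) on X, against 82 of 2991 (2.74%) on those arms. In replicate 2 they were 7 of 725 (0.966%) on X, against 115 of 3033 (3.79%). Clusters found in neither replicate followed the same order, with a median score of 0.503 for the 40 on X, against 0.362 for the 128 on the autosomal arms, at median widths of 1.31 and 1.30 kb. Narrow clusters were not rarer on X: 62 of 747 were under 2 kb, against 252 of 3072 on those arms. They included 35 of the 39 low scores on X and 244 of the 380. Their median score was 0.487 on X, against 0.346 on the arms, so the limit of 0.5 fell near the X median. In the replicates it was 0.658 on X, against 0.536, and 0.619 on X, against 0.491.

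The 10 widest X clusters ran from 21.2 to 43.1 kb, and their outer ends were nearly the same in all lists while 4 of them were cut inside. The replicates covered between 94.5% and 99.8% of each. The widest, X 15607346 to 15650448 (43.1 kb, score 2.27), consisted of 3 clusters in replicate 1, of 25.9, 1.51 and 15.3 kb, and of 2 in replicate 2, of 27.6 and 15.2 kb. In both libraries the last part began at nearly the same base, 15635151 in replicate 1 and 15635148 in replicate 2. The third, X 6699188 to 6737268 (38.1 kb, 2.21), was cut at the same place in both replicates, between 6708362 and 6709087 in replicate 1 and between 6708335 and 6708992 in replicate 2. Replicate 2 made a second cut that replicate 1 lacked, between 6725505 and 6725580.

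The second widest, X 1750640 to 1791386, was a single cluster everywhere, of 40.7 kb in the combined list, 40.6 kb in replicate 1 and 40.6 kb in replicate 2. Further along, X 1804272 to 1825512 (21.2 kb), closed the list of 10 and fell into 2 parts at the same place in each library, which measured 5.85 and 14.5 kb in replicate 1 and 5.67 and 14.4 kb in replicate 2. The fourth, X 8972010 to 9003578 (31.6 kb), was whole in all lists. The fifth, X 4424916 to 4448694 (23.8 kb, 1.89), was whole in replicate 2 and cut in replicate 1 by a break between 4439124 and 4439153. It also had the lowest score of the 10.

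The remaining 4 were whole in every list. X 363870 to 387230 measured 23.4 kb and X 19507320 to 19530424 measured 23.1 kb. X 19366882 to 19389626 followed with 22.7 kb and X 15347520 to 15369430 with 21.9 kb. Of these, X 19366882 to 19389626 had the highest score of the 10 widest, with 2.53 in the combined list, 2.60 in replicate 1 and 2.48 in replicate 2. Some clusters of this list stood at the edge of long unmarked sequence. X 363870 to 387230 was preceded by 182 kb without a cluster, X 4424916 to 4448694 by 159 kb and X 19366882 to 19389626 by 160 kb. This was no general trait of wide clusters, since X had 53 gaps over 100 kb in the combined list. Spearman's rho of gap length and the summed width of the flanking clusters was 0.00013 there, and -0.00865 and 0.00112 in the replicates.

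**Figure D2:**
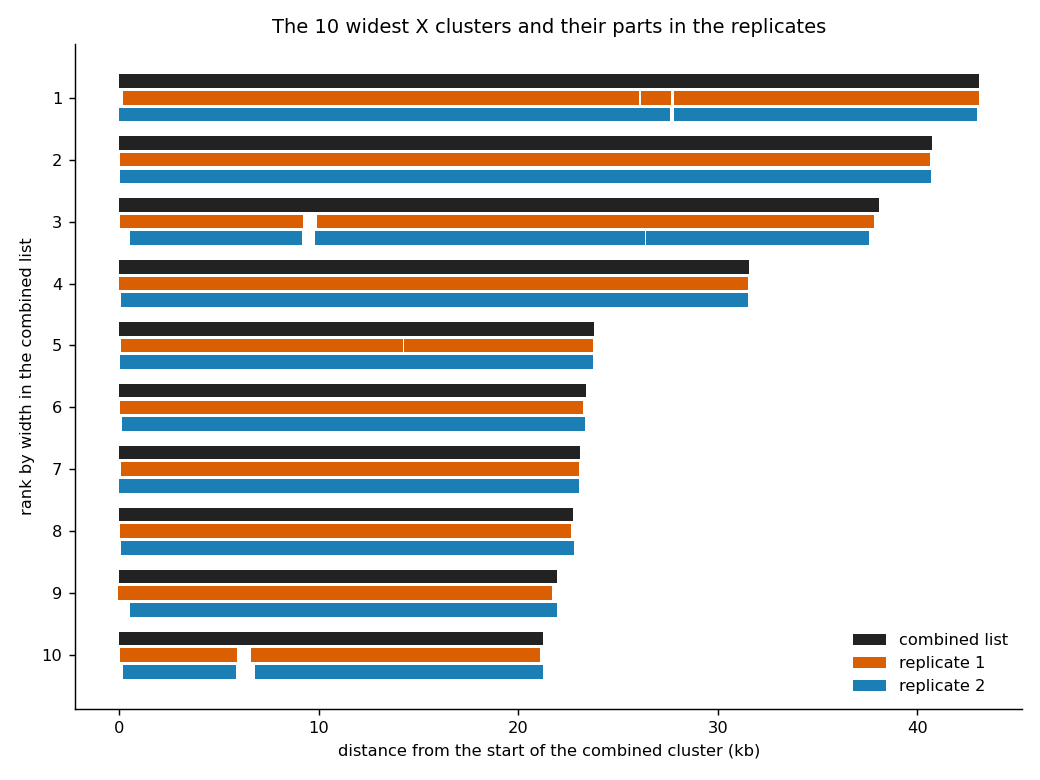
The 10 widest X clusters, widest at the top, as bars from the start of the combined cluster (kb), with the clusters of replicates 1 and 2 under each. Outer ends nearly coincide, and 1 break in each of ranks 1, 3 and 10 falls at nearly the same place in both replicates. Rank 1 has another in replicate 1 only, and rank 3 has another in replicate 2 only. The break of rank 5 is in replicate 1 only.

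Breaks of this kind were found in 51 of the 747 combined X clusters in at least 1 replicate. Of the 747, 37 were split in replicate 1, 32 in replicate 2 and 18 in both. Among the 125 clusters of 10 kb or wider, 25 were split in at least 1 replicate. Split clusters were wide, and their median was 9.27 kb, against 4.85 kb for the others.

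Neighbouring clusters on X were often very close. Of the 746 gaps between them, 173 (23.2%) were 1 kb or shorter, 106 were 500 bp or shorter and 32 were 100 bp or shorter, while the median gap was 4.70 kb and the mean 23.7 kb. The replicates gave medians of 4.84 and 4.99 kb. Not all short gaps recurred in the separate libraries. Of the 173, 24 lost a flanking cluster in at least 1 replicate. Both flanking clusters were present as separate clusters in both replicates for 144, and for 108 the gap between them was again 1 kb or shorter in both. A single replicate cluster bridged 8 of the 173, of which 7 were 100 bp or shorter. With clusters closer than 500 bp joined, the median gap was 7.20 kb, and with only the upper 50% of the list by score it was 16.003 kb.

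The median gap on X was shorter than on any autosomal long arm in each list. It was 4.70 kb on X in the combined list, against 5.51 kb on 2R to 7.03 kb on 2L. In replicate 1 it was 4.84 kb on X, against 5.89 to 7.15 kb, and in replicate 2 it was 4.99 kb on X, against 5.58 to 7.10 kb. The share of gaps of 1 kb or less was also above each of the 4 arms in each list, with 23.2% on X, against 18.8% to 20.5% in the combined list, 22.4% on X, against 17.9% to 19.9% in replicate 1 and 22.1% on X, against 19.2% to 20.5% in replicate 2. The shortest gaps did not follow this in the replicates. The 10th percentile of gaps was lowest on X in the combined list, at 341 bp. In replicate 1 it was 401 bp on X, against 356 bp on 3R, and in replicate 2 it was 417 bp on X, against 336 bp on 2L. At the long end X lay among the other arms: gaps over 100 kb were 7.10% on X, against 3.55% on 2R to 8.49% on 2L in the combined list. In the plot of gaps by arm the X curve lies above the others or at their upper edge from about 1 to 5 kb and among them above 100 kb.

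**Figure D3:**
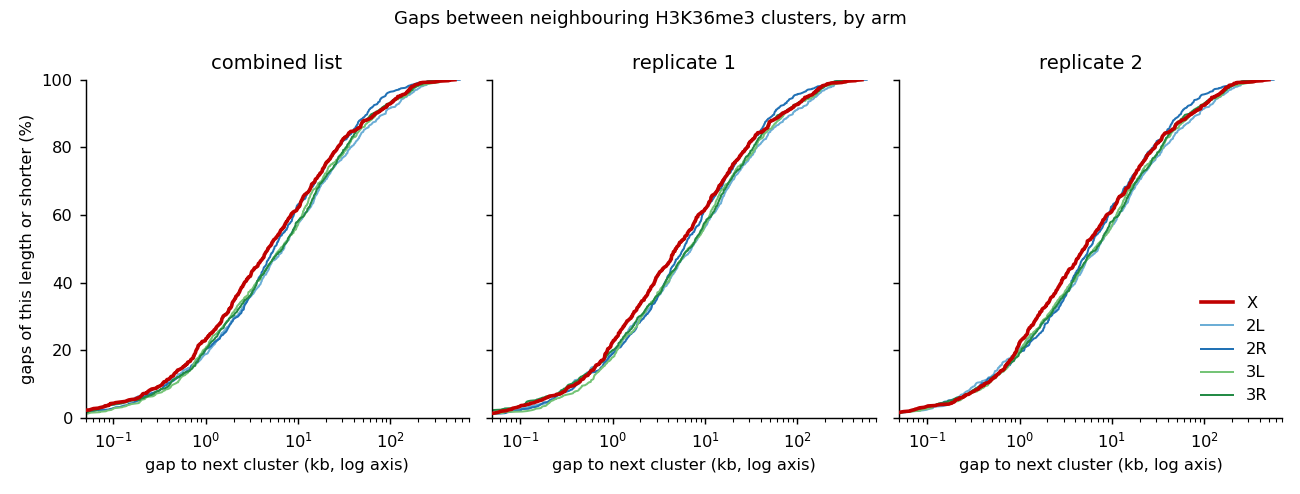
Cumulative share of gaps between neighbouring clusters (percent) by gap length (kb, log axis), for X and the 4 autosomal long arms in each list. The medians on X are 4.70 kb in the combined list, 4.84 kb in replicate 1 and 4.99 kb in replicate 2, each the shortest of the 5 arms.

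Close clusters mostly came in pairs. With a gap of at most 1 kb counted as close, 444 X clusters stood alone, 96 groups were pairs and 34 were runs of 3 or more, which held 111 clusters (14.9%). Autosomal arms had 10.4% on 3R to 13.1% on 3L of their clusters in such runs. In replicate 1 the share was 12.8% on X, against 8.86% to 10.7%, and in replicate 2 it was 13.4% on X, against 9.92% to 13.8%, where 3L was above X. Clusters in X runs had a median width of 4.75 kb, against 5.14 kb for the other X clusters, and nearly the same median score, 1.61 against 1.62. Of the 34 runs, 18 were overlapped by a run of each replicate. The number of clusters in runs depended on the limit, with 50 at a gap of at most 500 bp and 241 at most 2000 bp. With only the upper 50% of the list by score it was 15.

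The longest runs on X had 5 clusters each. In X 11455926 to 11479750 (23.8 kb), 93.3% of the span was marked, gaps were 93 to 825 bp, and each replicate also had 5 clusters. Its members were uneven: from left to right, widths were 7.94, 2.90, 6.55, 3.04 and 1.83 kb and scores 2.07, 1.43, 2.35, 1.03 and 0.462. The widest and highest-scoring members thus lay beside much weaker ones. In X 21476656 to 21500436 (23.8 kb), on the centromere side, 96.2% was marked and gaps were 147 to 299 bp. The replicates marked 86.1% and 79.5% of it. This run was less firm, since each replicate had 4 clusters there. Replicate 1 lacked X 21476656 to 21478704, and replicate 2 lacked X 21489484 to 21490764.

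The combined list had 5 runs of 4 clusters on X. The longest 3 also had 4 clusters in each replicate. They were X 16481514 to 16509162, X 11236620 to 11264032 and X 9129612 to 9156042, with spans of 26.4 to 27.6 kb and 92.9% to 96.9% marked. Scores inside these runs ranged widely, for example from 0.497 to 2.35 in X 9129612 to 9156042. The shorter 2, X 395080 to 413504 (18.4 kb) and X 19575588 to 19589754 (14.2 kb), were less firm, with 2 and 1 members found in neither replicate. Over X as a whole, neighbouring clusters were hardly related in score or width: Spearman's rho was 0.0111 for scores and 0.00422 for widths over 746 pairs of neighbours, which share their libraries.

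On a larger scale the X clusters formed islands. With gaps over 100 kb as separators, a limit chosen after the gaps were seen, X had 54 islands that spanned 59.0% of its length, and 36.05% of the sequence inside them was marked. Autosomal arms had 31.9% on 2R to 33.8% on 3R marked inside their islands. The replicates gave 35.3% and 35.01% on X, against 31.8% to 33.1% in replicate 1 and 31.5% to 32.9% in replicate 2. An island starts and ends on a cluster, so short islands tend to be fuller. The median span was shortest on X, at 151 kb, against 166 kb on 3L to 317 kb on 2R in the combined list. The longest island on X was X 1558596 to 2633140, 1075 kb long with 53 clusters and 39.0% marked. Next was X 16159142 to 17200160, 1041 kb long with 63 clusters and 34.0% marked. The 53 gaps over 100 kb took up 52.1% of the unmarked sequence between clusters.

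The 5 longest unmarked gaps on X all exceeded 300 kb, and 3 of them lay beyond 20 Mb. The longest was X 20396301 to 20894165, of 498 kb. After it came X 21945117 to 22374989 with 430 kb, X 11925505 to 12352383 with 427 kb, X 7225931 to 7565067 with 339 kb and X 21500437 to 21818299 with 318 kb. In each replicate each of them held at most 32 marked bases. The first island of X began almost at its tip, with a cluster that started at base 356 in the combined list, 455 in replicate 1 and 928 in replicate 2, and scored 1.70, 1.89 and 1.70 there.

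Along X, the share marked per 1 Mb window varied about as cluster number did. Over the 22 full windows it ran from 11.7% to 36.8% in the combined list, with a median of 21.6%. Spearman's rho with the number of clusters in the window was 0.911, and with their median width it was 0.0220 (22 windows of the same libraries). The most covered windows were 15 to 16 Mb (36.8%), 11 to 12 Mb (32.5%), 16 to 17 Mb (30.5%), 6 to 7 Mb (28.6%) and 19 to 20 Mb (27.6%). The least covered were 3 to 4 Mb (11.7%), 12 to 13 Mb (13.1%), 14 to 15 Mb (13.5%), 4 to 5 Mb (13.7%) and 20 to 21 Mb (14.1%). High and low windows lay side by side, as at 14 to 15 Mb next to 15 to 16 Mb. Between the replicates the median difference in a window was 0.213 percentage points, and the largest was 0.575.

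**Figure D4:**
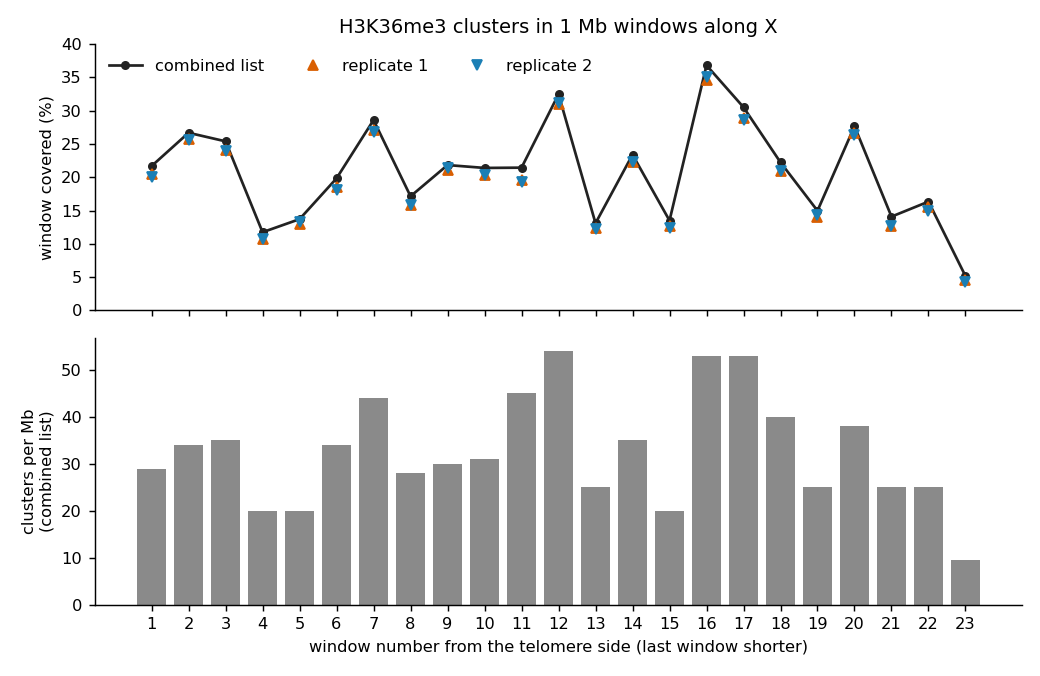
Share of each 1 Mb window of X that was marked (percent, top) in the combined list and in replicates 1 and 2, and clusters per Mb in the combined list (bottom), by window number from the telomere side. Window 16 is the most covered at 36.8% and the short window 23 the least at 5.15%.

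In windows of 100 kb the mark was far more uneven. Of 224 full windows, 33 had no marked base in any list and 13 were over 50% marked in every list. The fullest, from 19.5 to 19.6 Mb, was 83.4% marked in the combined list and 80.8% and 80.1% in the replicates. It held 12 clusters, among them X 19507320 to 19530424 of the 10 widest. Second was 15.6 to 15.7 Mb with 82.0%, and 79.8% and 79.9% in the replicates, and it contains the widest cluster of X.

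The 1.7 Mb from 15 Mb on, called the dense stretch here, were marked to 36.4% in the combined list and 34.5% and 34.6% in the replicates, a mean of 34.5% ± 0.0915 (SD, n = 2). The rest of X had 20.0% in the combined list and 18.9% and 18.8% in the replicates. As the stretch was picked for its density in these data, this is a description. Its clusters were denser on the sequence but not higher in score. There were 55.9 per Mb in the stretch, against 31.4 per Mb in the rest of X. Widths had a median of 5.25 kb in the stretch, against 5.06 kb in the rest of X. The median score was 1.51 in the stretch, against 1.63 in the rest of X, and in the replicates it was 1.61 and 1.59 in the stretch, against 1.75 and 1.71.

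The stretch was itself uneven. Its 17 windows of 100 kb ran from 0% to 82.0% marked, and 4 of them exceeded 50%. The densest part lay from 15.6 to 15.9 Mb, with 82.0%, 69.1% and 71.0% in 3 successive windows. An unmarked gap of 167 kb at X 15992489 to 16159141 divided the stretch. Further gaps lay at X 15033883 to 15186991, of 153 kb, and at X 15481769 to 15591877, of 110 kb. Neither replicate had a marked base in any of these gaps.

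Of the 95 clusters that lay wholly in the stretch, 16 were 10 kb or wider, from 10.2 to 43.1 kb. That was about the share over all of X, 125 of 747 clusters (16.73%). The 125 had a median score of 2.10 in the combined list, and 25 of them were split in at least 1 replicate. Of these 16, 14 were whole in both replicates and 15 scored between 1.83 and 2.58 in the combined list. The exception was X 16214928 to 16226428 (11.5 kb), with 1.38, and 1.54 and 1.39 in the replicates. It began 1579 bp after X 16203118 to 16213348, which scored 2.29. Just before that pair, X 16177138 to 16190866 (13.7 kb, 1.83) stood 207 bp from the highest-scoring cluster of X.

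Moved freely in steps of 10 kb, the fullest 1 Mb of X was 15590001 to 16590000 in all 3 lists, with 46.4% marked in the combined list and 44.3% and 44.6% in the replicates. The fullest 1 Mb of the autosomal long arms had 38.4% on 3L to 40.9% on 2R in the combined list, and at most 40.1% and 39.8% in the replicates. Fixed windows gave X no clear lead. The fullest fixed 1 Mb window had 36.80% on X, against 36.79% on 3R in the combined list. In the replicates it had 34.6% and 34.99% on X, against 35.7% and 35.2% on 3R. The fullest 100 kb window had 83.4% on X, against 84.1% on 2L in the combined list. In both replicates 2L was again above X. With the freely moved window, the emptiest 1 Mb of X was not near the centromere but at 2640001 to 3640000. It had 4.67% in the combined list and 4.20% and 4.47% in the replicates. It included X 2841770 to 2843680, the most isolated cluster of X, with its nearest neighbour 180 kb away. That cluster was 1.91 kb wide and scored 0.345 in the combined list and 0.446 and 0.414 in the replicates, so both libraries held it despite a score among the lowest.

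**Figure D5:**
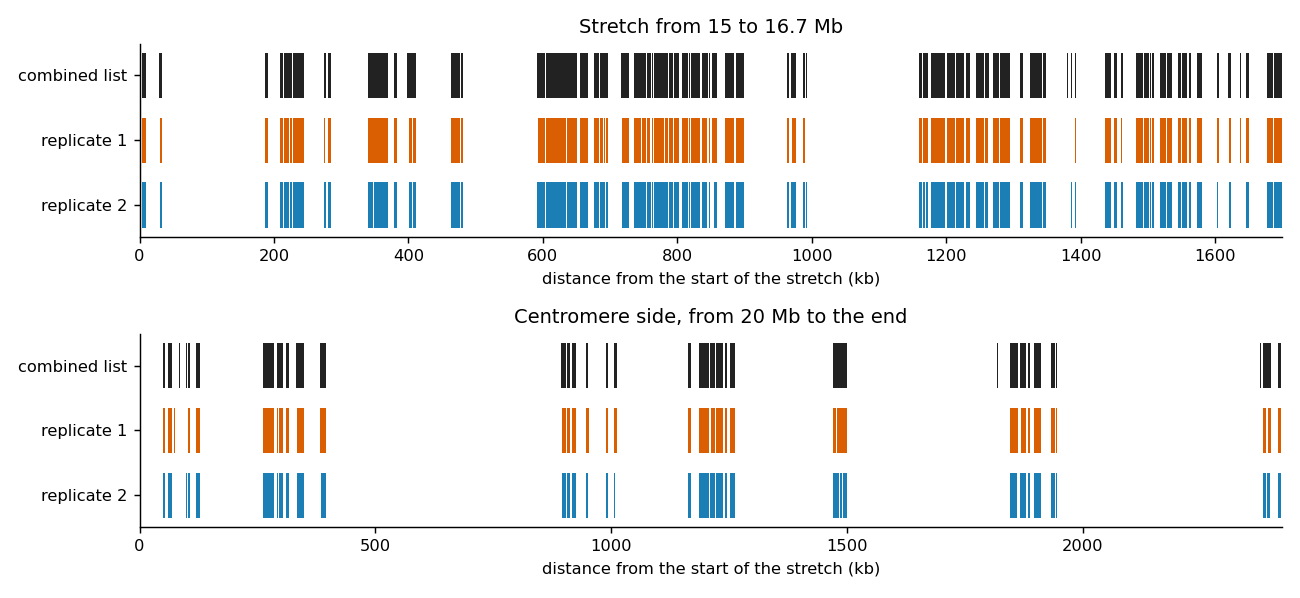
Clusters of the combined list and of replicates 1 and 2 as bars, by distance in kb from the start of each part, for the dense stretch (top) and the centromere side from 20 Mb (bottom; a different scale). The stretch is 36.4% marked in the combined list and broken by a gap of 167 kb, and the centromere side is 13.5% marked and shows 7 islands.

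From 20 Mb to the end of X, 13.5% was marked in the combined list and 12.4% and 12.1% in the replicates, a mean of 12.3% ± 0.200 (SD, n = 2). These 2.42 Mb held 54 clusters, or 22.3 per Mb. The clusters themselves were of usual size, with a median width of 5.14 kb, and their median score was 1.4996, against 1.62 over all X clusters in the combined list. In the replicates the scores were closer, at 1.73 on this side, against 1.74 over X in replicate 1, and 1.67 on this side, against 1.70 over X in replicate 2. Long gaps separated them. The clusters fell into 7 islands in each of the 3 lists, which spanned 26.1% of the sequence in the combined list. Of the bases inside these islands 51.5% were marked, against 36.05% inside all X islands, these 7 included. The islands on this side were short, from 30.0 to 134 kb, while X islands reached 1075 kb. Short islands tend to be fuller, so the 2 shares are not a like comparison.

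The islands of the centromere side differed in fill and score. X 21161606 to 21262770 was the strongest, with 8 clusters, 69.1% marked and a median score of 2.14, and the replicates marked 68.4% and 68.2% of it. X 21470458 to 21500436 was the fullest and the shortest, 93.5% marked over 30.0 kb in the combined list and 85.2% and 81.0% in the replicates. It contains the run of 5 clusters named above. X 20894166 to 21011394 was the least filled, with 34.8% in the combined list and 28.8% and 28.0% in the replicates. It followed the unmarked gap of 498 kb and had a median score of 1.29.

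Within the first of these islands, X 20048828 to 20128170, the lists differed most in number, with 10 clusters in the combined list and 7 in each replicate. The next, X 20262214 to 20396300, carried 4 of the 8 clusters of 10 kb or wider on this side, from 12.8 to 16.9 kb. The highest score among the 8 was 2.39, at X 20268488 to 20284448, with 2.40 and 2.31 in the replicates. X 21161606 to 21262770 held 3 more, X 21195128 to 21208066, X 21210336 to 21220780 and X 21222436 to 21237016, with scores of 1.75, 2.37 and 2.17. The eighth, X 21895510 to 21910622 (15.1 kb), scored 1.79 in the island from 21818300 to 21945116.

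The last island, X 22374990 to 22418932, had 4 clusters that scored 1.09 to 1.48, all below the X median of 1.62. It ended 3895 bases before the end of X. Its first cluster, X 22374990 to 22376426 (1437 bp), scored 1.09 and was in neither replicate, the highest score among the 40 such X clusters. The next highest of these, X 21818300 to 21819650 with 0.732, also opened an island on this side.

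A few X clusters belonged to 1 replicate when the libraries were set against each other. They were 15 of 729 (2.06%) in replicate 1 and 13 of 725 (1.79%) in replicate 2, against 1.67% and 2.64% on the autosomal long arms. All 28 were narrow, at most 2.31 kb, and each had a counterpart in the combined list. The highest-scoring in replicate 1 was X 10856037 to 10858343, with 1.08 there and 0.714 in the combined list. It was followed by X 7565068 to 7567260 (0.950, and 0.663 combined), X 3746052 to 3747664 (0.898, and 0.620), X 19129968 to 19131762 (0.819, and 0.556) and X 16832656 to 16834021 (0.814, and 0.515). In replicate 2 the highest was X 20091259 to 20092706, with 0.923 there and 0.680 in the combined list. Then came X 19029252 to 19031252 (0.856, and 0.696), X 15990852 to 15992216 (0.826, and 0.586), X 3063930 to 3065400 (0.782, and 0.553) and X 21476486 to 21478491 (0.764, and 0.532). The last is the cluster that the run of 5 on the centromere side lacked in replicate 1.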

How the data were processed

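H3K36me3 ChIP-seq libraries from fly heads were analysed from 3 lists of clusters deposited by the authors in general feature format version 3, with FlyBase release 5 coordinates per the file headers. Column 6 of each list is a score, the authors' enrichment score as deposited, on a scale that no header or label states. First and last bases count from 1. Bowtie 0.12.7 is named in the submitters' processing notes. No header or label names the cluster caller, its threshold or how replicates were combined, and read depth is unknown.

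X rows marked as enriched were kept, and the 1 region marked as depleted, not on X, was left out. Coverage, gaps, runs (3 or more clusters with gaps of at most 1000 bp), windows and overlaps (at least 1 bp) were computed with Python 3.11.15, numpy 2.4.6 and pandas 2.3.3, and checked on 50 simulated lists. Named regions were the 10 widest, 5 highest and 5 lowest scoring clusters, 5 longest runs and gaps, 5 most and least covered windows, clusters of 10 kb or wider in the 1.7 Mb from 15 Mb on and beyond 20 Mb, and the 5 highest scoring clusters of each replicate alone. The members and lists were chosen with earlier results of these data known. Islands, the score limit of 0.5, sliding windows and single clusters named for isolation were chosen after values were seen. Alternatives were each replicate alone, the upper 50% of the combined list by score, other gap limits, joined clusters, other borders and a stricter overlap. No cluster list of the inputs was used here.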

Additional observations from a re-analysis of the deposited data

Results flagged for a closer look

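XHet, the separate sequence of X heterochromatin, lies outside the comparisons made here and has no input list to set beside it. It carried 3 clusters in each list, at 57668 to 69720, 75964 to 81982 and 84306 to 87252 in the combined list, with scores of 1.46, 2.06 and 1.64. They covered 10.3% of its 204 kb in the combined list and 10.1% and 10.0% in the replicates.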

How the results depend on the processing

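Covered share, median width, median gap, clusters in runs, the coverage of the dense stretch and of the centromere side, and the share found in both replicates each moved under at least one alternative. With the upper 50% of the combined list by score, X was 14.8% covered, its median width was 7.20 kb and its median gap 16.003 kb, 15 clusters were in runs, the dense stretch was 24.3% covered, the centromere side 8.35% covered, and 100.0% of the X clusters were in both replicates. With clusters closer than 500 bp joined, the median width was 5.92 kb and the median gap 7.20 kb. Clusters in runs were 50 with gaps of at most 500 bp and 241 with at most 2000 bp. The dense stretch limited to 15 to 16 Mb was 36.8% covered and X from 18 Mb to its end 17.0%. Requiring 50% overlap left 90.6% in both replicates. Either replicate alone gave 19.97% to 20.1% for X, 4.88 to 4.96 kb for width, 4.84 to 4.99 kb for gaps, 93 to 97 clusters in runs, 34.5% to 34.6% for the stretch and 12.1% to 12.4% for the centromere side. With the upper 50% and in each replicate alone, the dense stretch remained more covered, and the centromere side less covered, than X as a whole. Both parts were picked with results of these data known, and these alternatives reuse the same libraries, so this is a description and no separate evidence. No paired analysis was possible because no cluster list of the inputs was used here. Unknown depth limits what can be said of the narrow, low-scoring clusters.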
